A study of Mus musculus with 11 samples.

Results

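The genes described here are 10 transcription factors of amacrine and horizontal cell fate, taken by symbol and Ensembl ID from tables of counts for 47069 mouse genes: Foxn4, Ptf1a, Prox1, Onecut1, Onecut2, Lhx1, Tfap2a, Tfap2b, Tfap2c and Pax6. All 10 were found, and all are protein-coding. Gene coordinates below are those of GENCODE M21 on GRCm38, the build that the processing notes name as mm10. RNA-seq libraries came from retinas of C57BL/6 mice at postnatal days 4 and 8 (P4 and P8), and the P4 groups held 2 wild-type libraries and 3 of Kir2.1, the P8 groups 3 each. Kir2.1 mice combined Brn3b-Cre, a recombinase active in retinal ganglion cells, with a transgene in which the CAG promoter and a floxed STOP cassette precede a fusion of eYFP with human Kir2.1, a potassium channel that rectifies inwardly and holds cells near rest. By its title, the study asked whether visual axons need correlated retinal activity around birth to be wired.

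The labels disagree in 3 places. The later age is P8 in the titles and the age field but P11 in the extraction text, and the control is wild type in the genotype field but Brn3b-Cre in that text. The source field names ganglion cells, whereas the extraction text describes dissociated retinas with no sorting, and markers of rods, bipolar, amacrine and horizontal cells were counted in every library. P4, P8 and wild type are used below as the titles give them. No label says that replicates came from separate animals, so p-values measure only the spread between these libraries. The transgene is a human cDNA, so counts of mouse genes do not check its expression. In dissociated whole retina, fewer cells of a type and less RNA per cell cannot be told apart.

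Amacrine cells are the inhibitory interneurons of the inner retina and horizontal cells those of the outer retina. Both arise from dividing progenitors in which the forkhead factor Foxn4 switches on the bHLH factor Ptf1a. Ptf1a pairs with an E protein and with RBPJ, commits cells to either fate, and acts through AP-2 factors (the Tfap2 genes) and Prdm13. Onecut1, Onecut2, Lhx1 and Prox1 act in horizontal cells, and Prox1 also in AII amacrine and some bipolar cells. Pax6 is needed in progenitors and remains on in mature amacrine, horizontal and ganglion cells. Most of these neurons are born before birth, so the retina at these ages holds postmitotic amacrine and horizontal cells beside late progenitors that make rods, bipolar cells and Mueller glia.

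Windows just before the start sites of Foxn4, Ptf1a and Prox1, the 3 genes whose P4 and P8 levels did not overlap in any library, are printed below from RefSeq (GRCm38.p6). Each spans bases 250 to 51 before a RefSeq start, on the strand of the gene. Capitals mark CANNTG, the E-box core bound by bHLH dimers, and TGGGAA, the core bound by RBPJ, read on both strands. The Foxn4 window is chr5:114273812-114274011 (minus strand), the Ptf1a window chr2:19445413-19445612 (plus strand) and the Prox1 window chr1:190170878-190171077 (minus strand).
Foxn4: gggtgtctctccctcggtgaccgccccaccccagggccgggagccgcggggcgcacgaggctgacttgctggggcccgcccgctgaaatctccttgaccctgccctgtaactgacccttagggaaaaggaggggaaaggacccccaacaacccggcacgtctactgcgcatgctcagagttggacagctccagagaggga
Ptf1a: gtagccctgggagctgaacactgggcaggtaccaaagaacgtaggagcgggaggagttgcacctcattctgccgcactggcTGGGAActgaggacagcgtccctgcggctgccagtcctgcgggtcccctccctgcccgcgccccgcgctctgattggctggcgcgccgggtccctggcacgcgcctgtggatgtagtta
Prox1: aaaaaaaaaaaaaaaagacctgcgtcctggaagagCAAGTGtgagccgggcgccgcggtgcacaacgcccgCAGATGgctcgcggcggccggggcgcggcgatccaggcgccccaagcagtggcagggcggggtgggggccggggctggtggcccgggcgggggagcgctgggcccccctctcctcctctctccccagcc
Neither motif is in these 200 bases of Foxn4. The Ptf1a window has 1 TGGGAA and no CANNTG, and the Prox1 window printed has 2 CANNTG and no TGGGAA. The table holds a second window for Prox1, chr1:190169566-190169765 (minus strand), which has 1 TGGGAA and no CANNTG. The RefSeq table held 11 such windows for 8 of the 10 genes, with no entry for Tfap2c or Onecut2. CANNTG was in 3 of the 11 windows and TGGGAA in 2, against 59.0% and 17.9% of the 32851 windows of that length over all genes. A match describes the letters in a window and shows no binding.

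Counts assigned to genes ranged from 9362215 to 12478838 per library. Genes with at least 1 count numbered 22609 to 24591 in 10 libraries and 31325 in Kir2.1 P8 replicate 2, which also had the highest share of uniquely aligned records outside genes (69.4% against 57.0% to 62.4%). The wild-type libraries did not lie close together within an age. The summed level of 11 rod markers was 208 and 1110 CPM (TMM-scaled counts-per-million) in the wild-type P4 libraries, 715, 2880 and 6470 CPM in the wild-type P8 libraries, and 5890 to 6290 CPM in the Kir2.1 P8 libraries. Wild-type P4 replicate 2 and wild-type P8 replicate 1 stood nearest to the other age in this sum. Results were therefore computed also without both of them, an alternative added after the data had been seen. Lens markers summed to 5.22 to 34.6 CPM and pigment epithelium markers to 3.72 to 6.12 CPM, but to 23.0 CPM in Kir2.1 P8 replicate 2.

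All 10 genes passed the low-count filter. Ptf1a passed through its P4 libraries alone, since 5 of 5 P4 and 0 of 6 P8 libraries had 10 or more of its counts. Per kilobase of exon (CPM/kb), Tfap2b had the highest level in every group, from 117.8 ± 38.2 CPM/kb (SD, n = 3) in Kir2.1 P8 to 193.2 ± 106.3 CPM/kb (n = 3) in wild-type P8. At P4 it was followed by Pax6 (89.2 ± 6.40 CPM/kb in wild type, n = 2), Tfap2a (60.6 ± 5.68) and Prox1 (43.8 ± 29.1), and Prox1 overlapped Tfap2a in wild type. Foxn4 (9.29 ± 7.74 CPM/kb), Tfap2c (7.86 ± 0.562) and Onecut2 (6.09 ± 1.08) came next, and Foxn4 overlapped both others. Onecut1 (3.86 ± 0.570), Lhx1 (2.72 ± 1.29) and Ptf1a (1.78 ± 1.73) were lowest, each overlapping its neighbour. At P8 the order differed. Prox1 stood second in both genotypes (127.2 ± 41.6 CPM/kb in wild type, 99.4 ± 15.3 in Kir2.1) and overlapped Tfap2b, and Foxn4 stood ninth (0.496 ± 0.124 and 0.742 ± 0.167). The plot of levels by library shows these values on the CPM scale, before division by length.

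**Figure D1:**
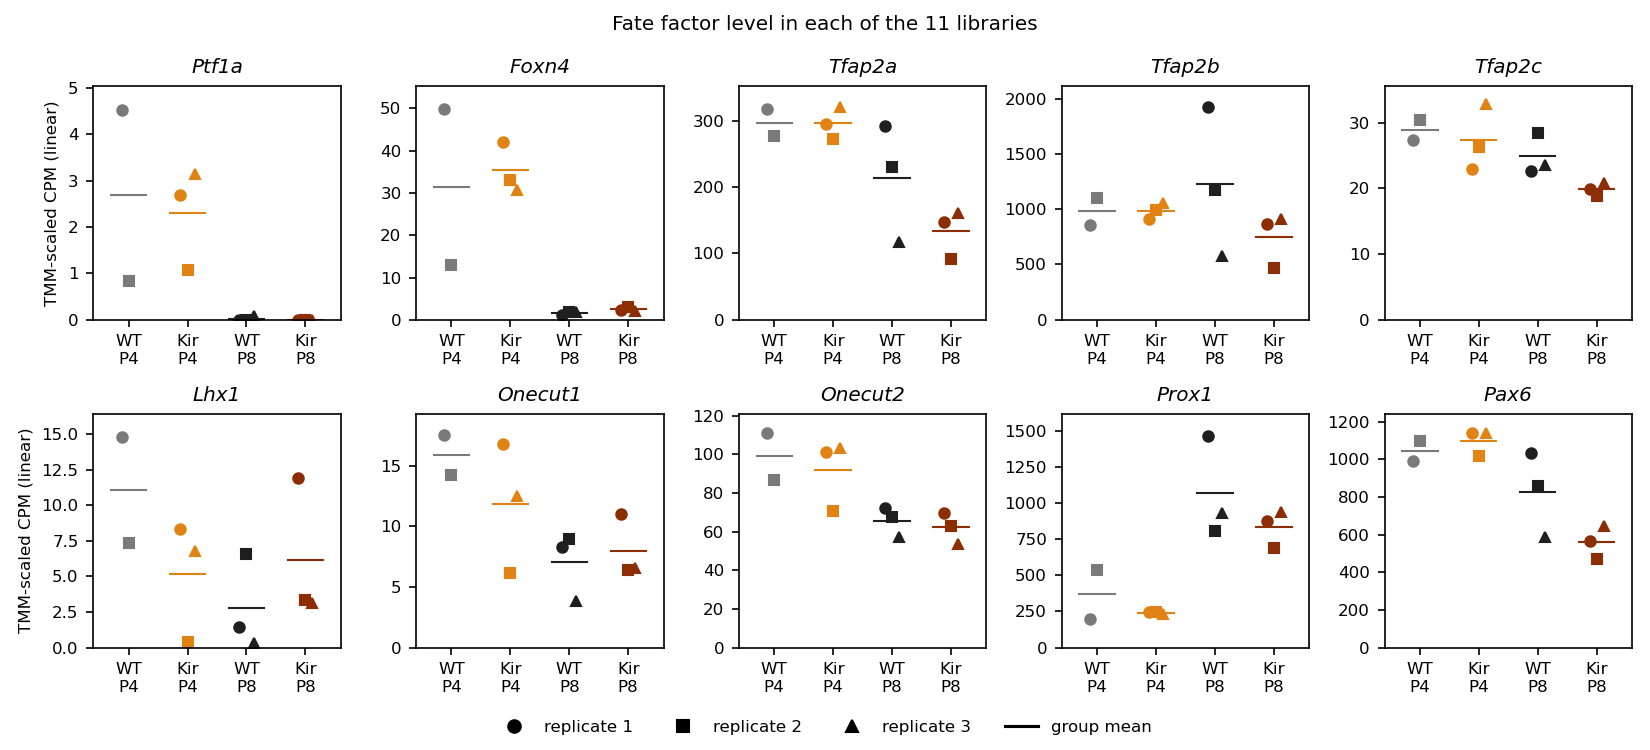
Level of each fate factor in TMM-scaled CPM (linear axis from 0, scaled per gene) in the wild-type (WT) and Kir2.1 (Kir) libraries at P4 and P8. Points are libraries, shaped by replicate number, and lines are group means; Foxn4 and Ptf1a are near 0 in the 6 P8 libraries, and Prox1 is above its P4 values in all 6.

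The 2 genes at the head of the cascade were at low levels at P8. Foxn4 (ENSMUSG00000042002, chromosome 5, 114254164 to 114273807, minus strand) is the forkhead factor that gives progenitors competence for both fates. It measured 49.8 and 12.9 CPM in the wild-type libraries at P4 and 42.1, 33.2 and 30.7 CPM in the Kir2.1 P4 libraries. At P8 it measured 1.19, 1.87 and 1.95 CPM in wild type and 2.32, 3.13 and 2.05 CPM in Kir2.1. All P4 libraries were above all P8 libraries, and wild-type P4 replicate 2 was the lowest of the P4 libraries. The log2 fold change from P4 to P8 was -4.21 ± 0.48 (SE) in wild type (edgeR adjusted p = 0.000398) and -3.82 ± 0.44 in Kir2.1 (edgeR adjusted p = 0.000209).

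Ptf1a (ENSMUSG00000026735, chromosome 2, 19445663 to 19447501, plus strand) is the bHLH factor that commits progenitors to the amacrine and horizontal fates. It had 4.53 and 0.846 CPM in the wild-type libraries at P4 and 2.70, 1.07 and 3.15 CPM in the Kir2.1 P4 libraries. At P8 it had no count in 5 of the 6 libraries and 1 count (0.0814 CPM) in wild-type replicate 3. The ages did not overlap, and the gene was at the limit of detection at P8. In Kir2.1 it had 79 counts over the 3 P4 libraries and 0 at P8, at least 24.6-fold lower when P8 is set to a floor of 3 counts over the group. In wild type 63 counts at P4 (53 and 10 by library) stood against 1 at P8, a depth-corrected ratio of 93.7. Its 95% exact counting interval, 16.2 to 3760, pools the libraries. It covers counting error only, leaves out the spread between libraries and is no test of age. Ptf1a passed the filter only where it was high, so no test of its age change is given. The antisense gene Ptf1aos shares 40.4% of Ptf1a's exon length and had 1 count in all, and whether the authors counted by strand is not given in the sources used here.

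Transcripts of progenitors declined over the same days. The 15 markers of progenitors and dividing cells, Ccnd1, Mki67 and Hes5 among them, summed to 4630 and 2400 CPM in wild-type P4, 4140 to 5040 CPM in Kir2.1 P4, and 962 to 1500 CPM in the 6 P8 libraries. The lowest P4 sum and the lowest P4 Foxn4 value belonged to the same library, wild-type P4 replicate 2. Leaving out Atoh7, which was at 1.38 CPM or less in every library, 12 of the 14 other markers passed the test as lower at P8 over both genotypes, against 12.1% of all genes. Their part in the levels of Foxn4 and Ptf1a was not tested.

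Prox1 (ENSMUSG00000010175, chromosome 1, 190118035 to 190170714, minus strand), a homeobox factor of horizontal, AII amacrine and bipolar cells, rose. It measured 194.9 and 539.8 CPM in wild-type P4 and 246.2, 245.8 and 234.6 CPM in Kir2.1 P4. At P8 it measured 1464, 804.3 and 934.6 CPM in wild type and 873.6, 691.2 and 938.1 CPM in Kir2.1. Every P8 library was above every P4 library. The highest P4 value was in wild-type replicate 2 and the highest P8 value in wild-type replicate 1. The log2 fold change was 1.54 ± 0.36 in wild type (edgeR adjusted p = 0.0306) and 1.78 ± 0.31 in Kir2.1 (edgeR adjusted p = 0.00269). Without wild-type P4 replicate 1 the wild-type value was 0.98 (edgeR adjusted p = 0.255), and without wild-type P4 replicate 2 it was 2.46 (edgeR adjusted p = 0.000689). The call was also lost without Kir2.1 P4 replicate 1 (edgeR adjusted p = 0.0545) or replicate 3 (0.0510), although neither belongs to a wild-type group. It was lost as well with the replicate number as a block (edgeR adjusted p = 0.0823) and on the wild-type libraries alone (0.228). Bipolar markers summed to 110 to 315 CPM at P4 and 398 to 1250 CPM at P8, and horizontal markers to 166 to 336 and 194 to 440 CPM. The part of either in the Prox1 change was not tested.

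The remaining horizontal cell factors were lower or not separable. Onecut2 (ENSMUSG00000045991), which acts with Onecut1 in horizontal and ganglion cell development, measured 111.3 and 86.5 CPM in wild-type P4 and 101.0, 70.8 and 103.4 CPM in Kir2.1 P4. At P8 it measured 72.0, 67.4 and 57.1 CPM in wild type and 69.8, 63.1 and 53.7 CPM in Kir2.1. Within each genotype the ages did not overlap, although Kir2.1 P4 replicate 2 was below the highest wild-type P8 library. The change was -0.56 ± 0.17 log2 in Kir2.1 (edgeR adjusted p = 0.0424), -0.59 ± 0.19 in wild type (edgeR adjusted p = 0.101) and -0.58 ± 0.13 averaged over genotypes (edgeR adjusted p = 0.00628). The Kir2.1 call was lost when any 1 of 6 libraries was left out. These were Kir2.1 P4 replicates 1 and 3 (edgeR adjusted p = 0.129 and 0.145), wild-type P8 replicate 2 (0.0594) and Kir2.1 P8 replicates 1, 2 and 3 in turn (0.0567, 0.0991 and 0.158). Ganglion cell markers summed to 174 to 1130 CPM at P4 and 69.9 to 210 CPM at P8, while the 5 tested horizontal markers all had positive log2 values for age. The part of either in the Onecut2 change was not tested.

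Onecut1 (ENSMUSG00000043013, chromosome 9, 74861921 to 74891781, plus strand) is the founder of that family. It had 17.5 and 14.2 CPM in wild-type P4, 16.8, 6.14 and 12.5 CPM in Kir2.1 P4, 8.34, 8.93 and 3.82 CPM in wild-type P8, and 11.02, 6.37 and 6.61 CPM in Kir2.1 P8. The wild-type ages were apart and the Kir2.1 ages overlapped. Its change averaged over genotypes was -0.87 ± 0.29 log2 and just missed the threshold (edgeR adjusted p = 0.0514, with a 95% interval from -1.50 to -0.23). The same-strand gene Gm20649 shares 52.8% of Onecut1's exon length and had no counts.

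Lhx1 (ENSMUSG00000018698, chromosome 11, 84518284 to 84525535, minus strand), a LIM-homeobox factor that guides horizontal cells to their layer, varied widely within groups. It measured 14.8 and 7.36 CPM in wild-type P4, 8.37, 0.384 and 6.82 CPM in Kir2.1 P4, 1.47, 6.55 and 0.325 CPM in wild-type P8, and 11.9, 3.34 and 3.12 CPM in Kir2.1 P8. The wild-type ages were apart, and the Kir2.1 ages overlapped. The highest library of a group was 21.8 times the lowest in Kir2.1 P4 and 20.1 times in wild-type P8. No age change passed the test, with -1.99 ± 1.05 log2 in wild type (edgeR adjusted p = 0.335) and 0.26 ± 0.95 in Kir2.1 (edgeR adjusted p = 0.899). The wild-type value was -3.64 without wild-type P8 replicate 2. The Kir2.1 value turned to -0.30 without Kir2.1 P4 replicate 2 and to -0.68 without Kir2.1 P8 replicate 1.

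By a look made after the values were known, the same 2 libraries were low for several horizontal cell genes. Kir2.1 P4 replicate 2 had the lowest P4 value of Lhx1, Onecut1 and Onecut2, and wild-type P8 replicate 3 the lowest P8 value of Lhx1 and Onecut1. Onecut3, the third gene of the family, stood at 0.461 CPM in the former and 0.488 CPM in the latter, against 9.64 to 15.1 and 2.29 to 11 CPM in the other libraries of those ages. Horizontal markers (Calb1, Septin4, Megf10, Megf11, Slc4a3 and Gja10) summed to 166 and 194 CPM in these libraries, the lowest of their ages. Ganglion cell markers were also lowest there, at 174 and 69.9 CPM, and the ganglion cell sums were 523 to 1130 CPM in the other P4 and 102 to 210 CPM in the other P8 libraries. Not every horizontal cell gene was low in these libraries. Septin4 stood at 57.8 and 84.0 CPM, within the 31.4 to 66.1 and 61.5 to 107 CPM of the other libraries of those ages. Prox1, at 245.8 and 934.6 CPM, also lay within the range of the other libraries of each age. Which of these, if any, bears on the Lhx1 values was not tested.

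The AP-2 factors act downstream of Ptf1a and are needed in amacrine and horizontal cells after they are born. Tfap2a (ENSMUSG00000021359, chromosome 13, 40715302 to 40738376, minus strand) measured 316.9 and 277.5 CPM in wild-type P4 and 294.4, 273.1 and 320.8 CPM in Kir2.1 P4. At P8 it measured 291.4, 230.5 and 117.0 CPM in wild type and 147.2, 91.2 and 161.3 CPM in Kir2.1. In Kir2.1 all P8 libraries were below all P4 libraries, whereas in wild type replicate 1 at P8 lay within the P4 range and replicate 3 was the lowest. The change was -1.15 ± 0.28 log2 in Kir2.1 (edgeR adjusted p = 0.0153) and -0.48 ± 0.31 in wild type (edgeR adjusted p = 0.442). The Kir2.1 call was lost without Kir2.1 P4 replicate 3 (edgeR adjusted p = 0.0515) and without Kir2.1 P8 replicate 2 (0.0611).

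Tfap2b (ENSMUSG00000025927, chromosome 1, 19208914 to 19238576, plus strand) was the most abundant of the 10 per kilobase and marks most amacrine cells. It measured 861.3 and 1105 CPM in wild-type P4 and 910.7, 989.1 and 1060 CPM in Kir2.1 P4. At P8 it measured 1922, 1174 and 577.5 CPM in wild type and 862.9, 468.4 and 909.1 CPM in Kir2.1. Wild-type P8 held both a value above every P4 library and one below them all. The age change was 0.32 ± 0.39 log2 in wild type (edgeR adjusted p = 0.721), -0.40 ± 0.34 in Kir2.1 (edgeR adjusted p = 0.492) and -0.04 ± 0.26 averaged over genotypes (95% interval -0.60 to 0.52, edgeR adjusted p = 0.931). The sum of 16 amacrine markers, among them Gad1, Slc6a9 and Slc32a1, was 2070, 1730 and 954 CPM in the same wild-type P8 libraries and 1180, 835 and 1340 CPM in Kir2.1 P8. The wild-type P8 library with the most Tfap2b had the highest amacrine sum, and the one with the least had the lowest.

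Tfap2c (ENSMUSG00000028640, chromosome 2, 172549593 to 172558622, plus strand), is found in a subset of amacrine cells. It measured 27.4 and 30.4 CPM in wild-type P4, 23.0, 26.2 and 32.9 CPM in Kir2.1 P4, 22.6, 28.4 and 23.6 CPM in wild-type P8 and 19.9, 18.9 and 20.8 CPM in Kir2.1 P8. The P8 values of Kir2.1 lay below all others. The age change was -0.46 ± 0.16 log2 in Kir2.1 (edgeR adjusted p = 0.0749) and -0.22 ± 0.18 in wild type (edgeR adjusted p = 0.574).

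The ratios of genes within a family were chosen after the levels had been seen, so they are a description with no test. The ratio of Tfap2a to Tfap2b per kilobase was 0.476 and 0.325 in wild-type P4, 0.418, 0.357 and 0.391 in Kir2.1 P4, 0.196, 0.254 and 0.262 in wild-type P8, and 0.221, 0.252 and 0.229 in Kir2.1 P8. No P8 library reached any P4 library in either genotype, and wild-type P8 replicate 3, low for both genes, lay with the other P8 libraries. The mean was 0.393 ± 0.0579 at P4 (SD, n = 5) and 0.236 ± 0.0250 at P8 (n = 6). Tfap2c over Tfap2b (0.0490 ± 0.00497 at P4, 0.0468 ± 0.0195 at P8) and Onecut1 over Onecut2 (0.549 ± 0.137 and 0.458 ± 0.121) overlapped between ages. An antisense gene, Gm26688, shares 7.75% of Tfap2a's exon length and had 351 counts in all.

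**Figure D2:**
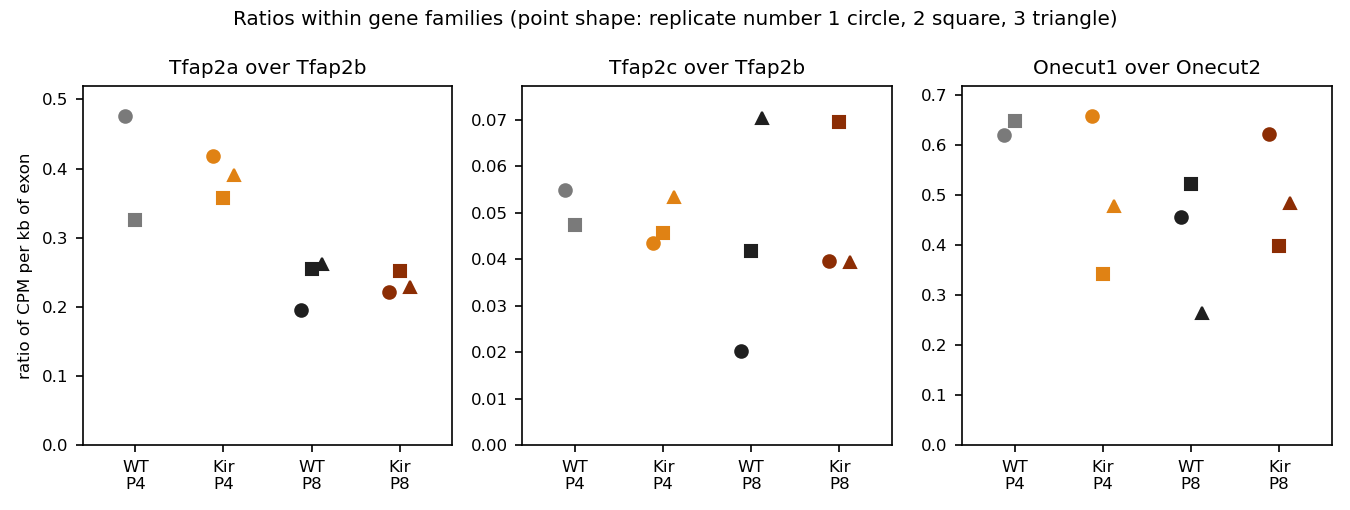
Ratios of CPM per kilobase of exon between genes of a family in each library (linear axes from 0; WT, wild type; Kir, Kir2.1). Tfap2a over Tfap2b lies between 0.325 and 0.476 in the 5 P4 libraries and between 0.196 and 0.262 in the 6 P8 libraries, while the other ratios overlap.

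Pax6 (ENSMUSG00000027168, chromosome 2, 105668900 to 105697364, plus strand), the paired-box factor shared by progenitors and inner retinal neurons, was level at P4, with 989.8 and 1096 CPM in wild type and 1138, 1020 and 1139 CPM in Kir2.1. At P8 it measured 1034, 859.3 and 585.4 CPM in wild type and 567.7, 471.6 and 644.6 CPM in Kir2.1. All Kir2.1 P8 libraries were below all P4 libraries, and in wild type replicate 1 stayed within the P4 range. The change was -0.97 ± 0.18 log2 in Kir2.1 (edgeR adjusted p = 0.00366) and -0.34 ± 0.20 in wild type (edgeR adjusted p = 0.399). Rod markers summed to 715 CPM in wild-type P8 replicate 1, which had the most Pax6 of its group, and to 6470 CPM in replicate 3, which had the least. In Kir2.1 P4 the highest rod sum (664 CPM, replicate 2) also went with the least Pax6. The order was the opposite in Kir2.1 P8, with 6290 CPM beside the most Pax6 (replicate 3) and 5890 CPM beside the least (replicate 2). It was the opposite too in wild-type P4, with 1110 CPM beside the higher Pax6 value and 208 CPM beside the lower. Rods do not keep Pax6, and what a larger share of rod RNA contributes to the lower CPM of Pax6 was not tested.

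**Figure D3:**
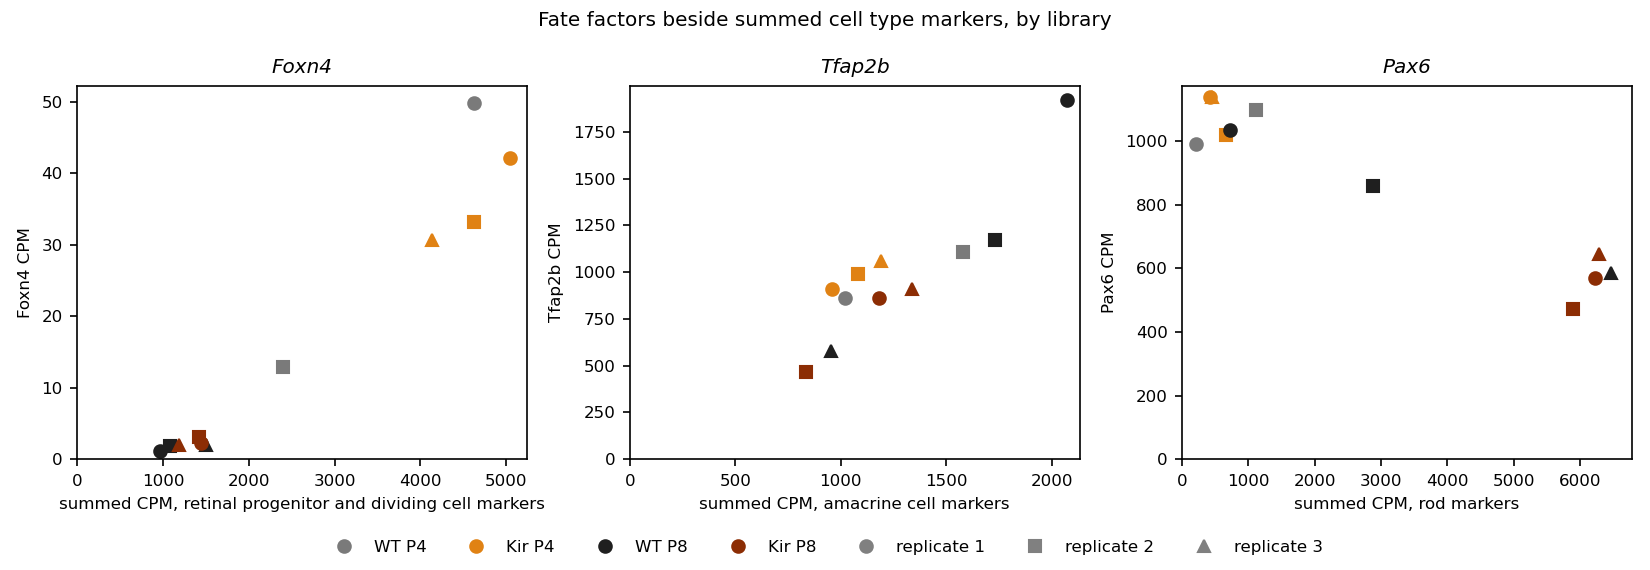
Foxn4, Tfap2b and Pax6 (CPM) against the summed CPM of progenitor, amacrine and rod markers, 1 point per library, with color for group and shape for replicate number (linear axes). Wild-type P4 replicate 2 lies between the ages for Foxn4 and the progenitor sum (12.9 and 2400 CPM), and wild-type P8 replicate 1 has the highest Tfap2b (1922 CPM) and lies with the P4 libraries for Pax6 and the rod sum (1034 and 715 CPM).

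Ptf1a is left out of the counts that follow, because it passed the filter through P4 alone. Of the 9 others, 5 passed the test for age averaged over genotypes, Prox1 as higher and Foxn4, Tfap2a, Onecut2 and Pax6 as lower. Over all 18188 genes tested 22.8% passed, 10.7% higher and 12.1% lower. For 2 of the 9, Foxn4 and Prox1, no P4 library overlapped any P8 library, against 11.6% of all genes. In Kir2.1 the same 5 genes passed, against 16.7% of all genes (7.93% higher, 8.73% lower), and 7 of 9 had ages that did not overlap, against 38.1%. In wild type Foxn4 and Prox1 passed, against 4.39% of all genes (0.803% higher, 3.58% lower), and 5 of 9 did not overlap, against 31.1%. A pass in Kir2.1 and none in wild type for Tfap2a, Onecut2 and Pax6 does not show a difference between genotypes. The test of that difference gave -0.67 ± 0.42 log2 for Tfap2a, 0.04 ± 0.25 for Onecut2 and -0.63 ± 0.27 for Pax6, each with an edgeR adjusted p of 1.0. None of the 10 genes and 0% of all genes passed it, with 562 genes at an unadjusted p under 0.05 and 0 calls by the DESeq2 test. Without wild-type P4 replicate 2 and wild-type P8 replicate 1 the wild-type changes were -4.72 for Foxn4, 2.14 for Prox1 and -0.86 for Onecut2 (edgeR adjusted p = 0.038), and Onecut2 then passed as well. Without wild-type P4 replicate 1 the wild-type calls came down to Foxn4 alone (-2.93, edgeR adjusted p = 0.000668), and the call of Tfap2a averaged over genotypes was lost (edgeR adjusted p = 0.0615).

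**Figure D4:**
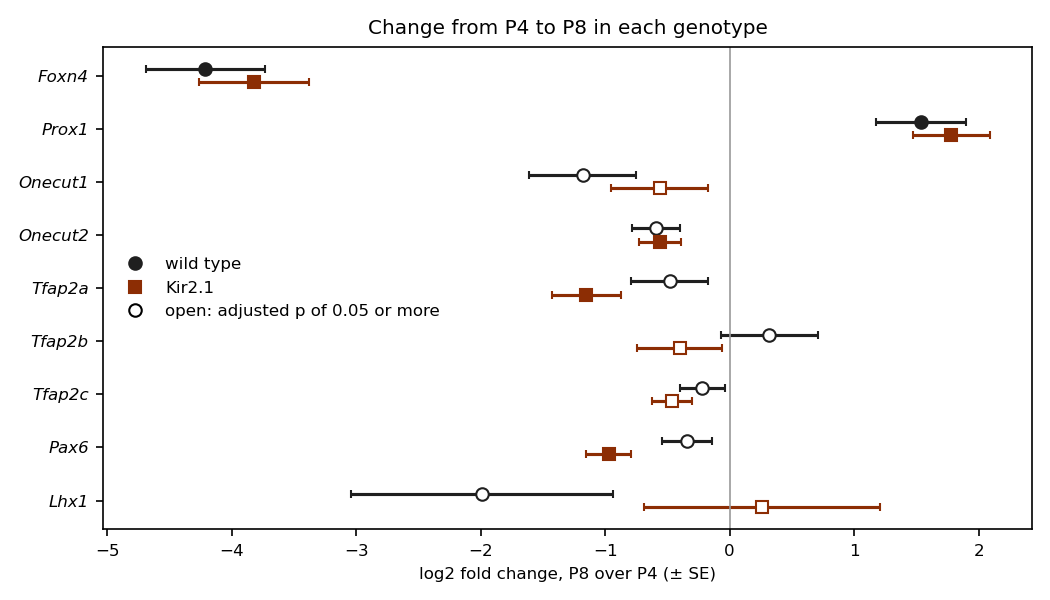
Log2 fold change from P4 to P8 (± SE) of 9 fate factors in wild type (circles) and Kir2.1 (squares), filled where the edgeR adjusted p was under 0.05. Foxn4 is lowest in both genotypes and Prox1 is the only gene called higher; Ptf1a is left out because it had at most 1 count per library at P8.

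Expression of Kir2.1 in ganglion cells was compared with wild type at each age. At P4 none of the 10 genes passed the test, and neither did any gene (0% of 18188, with 1314 at an unadjusted p under 0.05; the DESeq2 test called 33). Adjusted p-values of the 10 ranged from 0.72 to 0.997 (edgeR). The groups overlapped for all 10 genes, while 26.7% of all genes had groups that did not. The difference of Kir2.1 from wild type was 0.08 ± 0.20 log2 for Pax6 (95% interval -0.36 to 0.51) and -0.11 ± 0.19 for Onecut2 (-0.52 to 0.30). Intervals were wider for Foxn4 (0.17 ± 0.41, from -0.73 to 1.07) and Lhx1 (-1.10 ± 1.03, from -3.34 to 1.14).

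For Foxn4 and Prox1 the P4 comparison was set by which wild-type library was kept. Foxn4 stood at 1.45 log2 in Kir2.1 over wild type without wild-type P4 replicate 1 (edgeR adjusted p = 0.207) and at -0.49 without replicate 2 (edgeR adjusted p = 0.925), and those libraries measured 49.8 and 12.9 CPM. Prox1 was -1.16 without replicate 1 (edgeR adjusted p = 0.189) and 0.32 without replicate 2 (edgeR adjusted p = 0.930), with 194.9 and 539.8 CPM in those libraries. Neither gene kept its direction between these cases.

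At P8 again none of the 10 passed (0% of 18188, with 1240 at an unadjusted p under 0.05; the DESeq2 test called 3). Pax6 had the lowest unadjusted p, with -0.56 ± 0.18 log2 (unadjusted p = 0.00877, edgeR adjusted p = 0.699), followed by Tfap2a (-0.68 ± 0.28, unadjusted p = 0.0321, edgeR adjusted p = 0.699). Tfap2b was -0.71 ± 0.35, but -0.23 without wild-type P8 replicate 1 and -1.05 without replicate 3, and it passed only with no low-count filter (edgeR adjusted p = 4.65e-06). Tfap2c was -0.32 ± 0.16. Foxn4 and Tfap2c were the 2 genes whose groups did not overlap, against 10.6% of all genes. All 3 Kir2.1 libraries were above all 3 wild-type libraries for Foxn4 (0.56 ± 0.49) and below them for Tfap2c. Prox1 (-0.36 ± 0.30), Onecut1 (0.19 ± 0.40), Onecut2 (-0.07 ± 0.17) and Lhx1 (1.15 ± 0.98) overlapped. Prox1 was -0.06 without wild-type P8 replicate 1. Leaving out wild-type P8 replicate 2 gave Lhx1 a value of 2.80, and leaving out Kir2.1 P8 replicate 1 gave 0.22.

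The P8 values of Pax6 and Tfap2a moved with the library left out. Wild-type P8 replicate 3 had the lowest wild-type value of both (585.4 and 117.0 CPM), inside the Kir2.1 range of 471.6 to 644.6 and 91.2 to 161.3 CPM. Without it Pax6 was -0.75 (edgeR adjusted p = 0.0364) and Tfap2a -0.97 (0.0441), and both passed, as did 219 of all genes. Without wild-type P8 replicate 1 they were -0.37 and -0.38, each with an edgeR adjusted p of 1.0, and without Kir2.1 P8 replicate 2 they were -0.45 and -0.46 (edgeR adjusted p = 0.943 for both). All 16 amacrine markers had a negative log2 change at P8 (median -0.54 against 0.00 over all genes), and none passed. Rod markers had a positive value for all 11 (median 0.89), and none passed. The part of either in the Pax6 and Tfap2a values was not tested.

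**Figure D5:**
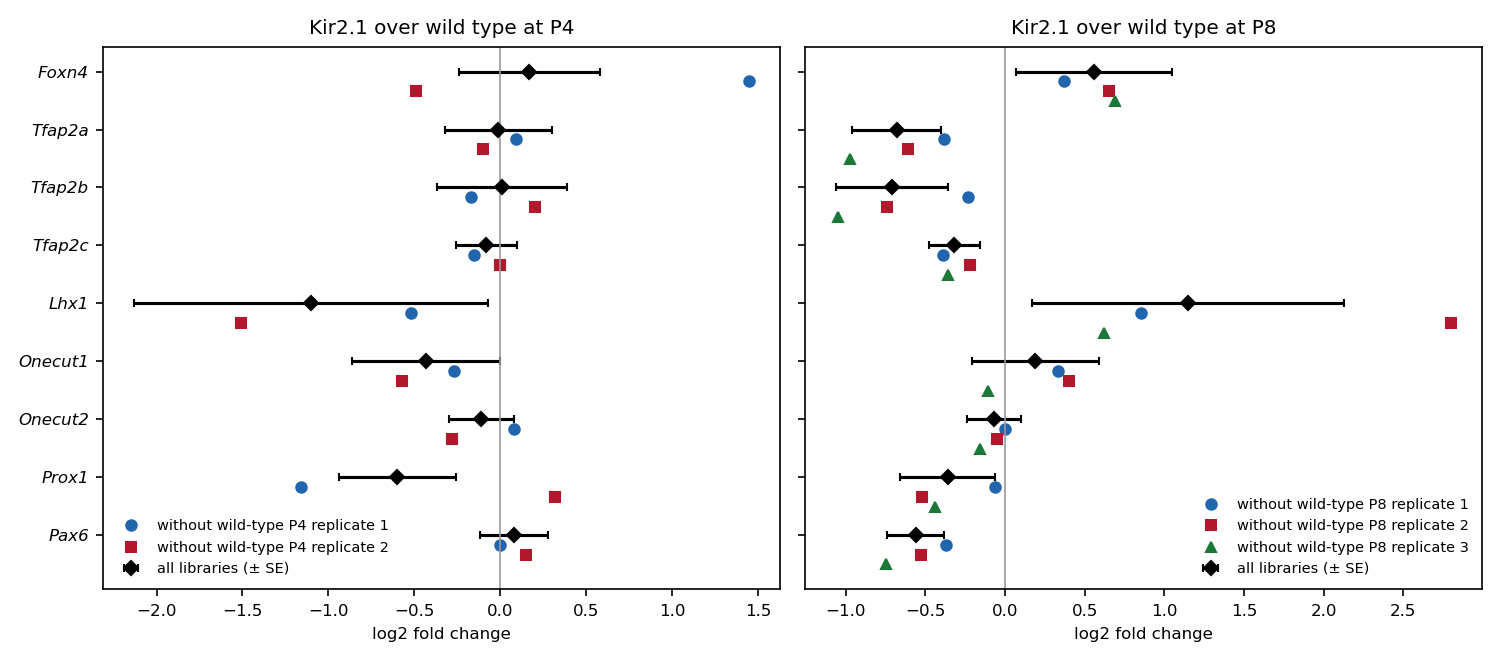
Log2 difference of Kir2.1 from wild type at P4 (left) and P8 (right), with all libraries (diamonds, ± SE) and with each wild-type library of that age left out. At P4 Foxn4 and Prox1 lie on opposite sides of 0 by the library left out, and at P8 Tfap2a and Pax6 are lower in every case, most so without wild-type replicate 3.

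The authors' deposited tables gave calls for 4 of the 10 genes, none of which edgeR called on the filtered counts of all libraries. Without the low-count filter edgeR called 3 of these 4, Prox1 at P4 (edgeR adjusted p = 0.00289) and Tfap2a and Pax6 at P8 (edgeR adjusted p = 0.000465 and 0.00157). That fit called 339 of 36534 genes at P4 and 447 at P8. At P4 the authors' deposited table called 2.27% of 13830 genes, with Foxn4 at 1.33 ± 0.29 log2 (adjusted p = 0.00106) and Prox1 at -0.89 ± 0.18 (adjusted p = 0.000193). At P8 the authors' deposited table called 7.27% of 13396 genes, with Tfap2a at -0.96 ± 0.23 (adjusted p = 0.00171) and Pax6 at -0.77 ± 0.17 (adjusted p = 0.000768). The corresponding edgeR values were 0.17 and -0.60 at P4 with all libraries and 1.45 and -1.16 without wild-type P4 replicate 1. At P8 they were -0.68 and -0.56 with all libraries and -0.97 and -0.75 without wild-type P8 replicate 3.

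The mean normalized counts in the same tables bear on which libraries they cover. Of the 740 genes counted at P4 in wild-type replicate 1 alone, the authors' deposited table gave a mean of 0 for 75.8%, against 12.5% to 16.0% for genes counted in 1 other P4 library alone. At P8 the share was 82.0% of 466 genes for wild-type replicate 3 and 8.23% to 22.5% for the others. Ptf1a, whose single P8 count was in wild-type P8 replicate 3, had a mean of 0 in the authors' deposited table for P8. Which libraries entered the authors' comparisons is not given in the sources used here.

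Of 7 partners and targets of the Foxn4 and Ptf1a cascade (Rorb, Dll4, Prdm13, Rbpj, Rbpjl, Tcf3 and Tcf12), 6 were tested and 1 passed for age over both genotypes (median -0.17 log2), beside the 22.8% of all genes that passed. That was Tcf3, an E protein that can pair with Ptf1a, which fell from 80.5 to 136 CPM at P4 to 65.0 to 71.8 CPM at P8 (-0.71 ± 0.10 log2, edgeR adjusted p = 0.000276). Prdm13, a target of Ptf1a that promotes amacrine fate, was 56.3 to 79.3 CPM at P4 and 57.9 to 88.7 CPM at P8 (0.06 ± 0.11, edgeR adjusted p = 0.741). Prdm13 transcripts were thus counted at P8 in libraries where Ptf1a was at 0 or 1 count.

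Regulators of amacrine subtypes moved in both directions, with 6 of 15 called higher and 6 lower for age, beside 10.7% and 12.1% of all genes. Bhlhe23 is left out of this count, because it passed the filter mainly through P8. It had 0 to 3.47 CPM at P4, with no count in 3 of the 5 libraries, and 5.41 to 22.0 CPM at P8, and neither a fold nor a test is given. Isl1, a marker of starburst amacrine and of bipolar and ganglion cells, rose (2.29 ± 0.29 log2, edgeR adjusted p = 0.000218). Neurod1 rose by 1.08 ± 0.21, whereas Ebf3, found in glycinergic amacrine and ganglion cells, fell (-1.25 ± 0.21, edgeR adjusted p = 0.00117). Barhl2, needed for amacrine subtype choice, fell (-0.71 ± 0.20, edgeR adjusted p = 0.0256). Bhlhe22, which acts in GABAergic amacrine and bipolar cells, was at -0.02 ± 0.11 (edgeR adjusted p = 0.921).

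Among 8 relatives of the fate factors, 1 rose and 3 fell (median -0.85), beside the same shares of all genes, 10.7% and 12.1%. Tfap2e (-1.66 ± 0.21 log2, edgeR adjusted p = 0.000189) and Tfap2d (-1.01 ± 0.23, edgeR adjusted p = 0.00748), the other AP-2 genes, fell, as did Foxn2 (-0.61 ± 0.12), and Foxn3 rose (0.63 ± 0.10). Horizontal markers had 2 of 5 tested called higher, against 10.7% of all genes, Calb1 (2.05 ± 0.58, edgeR adjusted p = 0.0236) and Septin4 (0.78 ± 0.19, edgeR adjusted p = 0.0117), while Onecut2 of the horizontal factors fell and Prox1 rose. In none of these lists did a gene pass for Kir2.1 against wild type at either age.

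Genes with the most similar course over the 11 libraries were listed for 6 of the factors, by Pearson's r of log2 CPM among 15994 genes. The libraries come from 2 ages, and the genes share their depth and makeup, so the values are a description. Among the genes most like Foxn4 were Cenpa (r = 0.996) and Gas2l3 (0.995), genes of the centromere and of cell division. Ptf1a was most like the histone genes Hist1h2ak (0.990) and Hist1h2bb (0.983) and the nuclease gene Ankle1 (0.983). Pax6 was nearest to Hunk (0.978) and Mmp16 (0.977), with Tfap2a next (0.975). Lhx1 was nearest to the neighbouring noncoding gene Lhx1os (0.961) and to Onecut3 (0.945). Tfap2b was nearest to Hip1r (0.978), Mab21l1 (0.961) and Ankrd13a (0.949), and Onecut2 to Akap12 (0.967), Cttnbp2nl (0.963) and Psmc3 (0.95).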

How the data were processed

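The factors and gene lists were chosen with earlier results of these data known. Per the submitters' processing notes, reads were handled with cutadapt 1.18, STAR 2.5.0c, SAMtools 1.9, bedtools 2.26.0 and HTSeq 0.6.1, with build mm10 and DESeq2. The annotation release and the strand setting are not given in the sources used here. The authors deposited whole-number counts per Ensembl gene for each library. Library sizes and tests exclude the records that are no gene, 74.6% to 79.8% of a table. For each age the authors also deposited their own contrast of Kir2.1 with wild type. Per the file headers its columns are a mean normalized count (a signal in the authors' scaling), the log2 fold change and standard error, and p-values before and after adjustment. The deposited statistic, a score, was not used.

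Symbols came from a table of Ensembl IDs (46488 of 47069 matched), and exon lengths are the union of exons in GENCODE M21. Of the 47069 genes 18188 passed filterByExpr. TMM scaling, glmQLFit and glmQLFTest of edgeR 4.0.16 (R 4.3.3) were run on all 11 libraries with 4 group means, and contrasts gave each genotype effect, their difference, and age in each genotype and averaged. p-values were adjusted over all genes tested by Benjamini-Hochberg, with a threshold of 0.05, and an adjusted p is edgeR's unless another source is named. The scripts were tested on simulated data. A count of 0 allows up to 3 counts, and counting intervals cover counting error only. Alternatives were DESeq2 1.42.0 (size factors, test), voom in limma 3.58.1, 2 other filters, only the groups compared, a replicate block and each library left out. All factors were named. Genes of the partner, regulator and relative lists were named if called, at most 4 per list by size of change, with Prdm13, Barhl2 and Bhlhe22 in any case. Marker genes named outside these lists are examples chosen outside this rule, and the 3 genes most like each of 6 factors were named by correlation, except 1 that is not reported here.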

Additional observations from a re-analysis of the deposited data

How the results depend on the processing

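For age averaged over genotypes, Foxn4, Onecut2, Prox1 and Pax6 were called under all 18 alternatives, Tfap2a under 17, Onecut1 under 6, Tfap2c under 3 and Lhx1 under 1. In Kir2.1 Foxn4, Prox1 and Pax6 were called under all 19 alternatives, Tfap2a under 17, Onecut2 under 13, Tfap2c under 2 and Tfap2b under 1. In wild type Foxn4 was called under all 19, Prox1 under 14, Onecut2 under 2, and Tfap2a, Onecut1 and Lhx1 under 1 each. Ptf1a is left out of all age calls in this section, because it passed the filter through P4 alone. Deviations from group means correlated at -0.08 to 0.14 for same-numbered libraries and at -0.13 to 0.13 for different-numbered libraries of an age. With 2 or 3 libraries per group, these values cannot show whether the replicate numbers pair the libraries. With the replicate number as a block, Foxn4, Tfap2a, Onecut2, Prox1 and Pax6 were called for age averaged and in Kir2.1. In wild type Foxn4 alone was called, and the call of Prox1 was lost. None of the 10 was called for a genotype comparison. Of all 18188 genes the block gave 3721 for age averaged, 558 in wild type, 2928 in Kir2.1 and 0 for genotype.

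Without a filter on low counts the number called among the 10 was 1 for Kir2.1 against wild type at P4, 3 at P8, 2 for the difference between ages and 7 for age in wild type. Fitted on the groups compared alone, age in wild type gave 1. With 1 library outside wild-type P4 left out, genotype at P8 gave Tfap2a and Pax6 without wild-type P8 replicate 3 and otherwise none. For age averaged, each of these fits kept the calls of Foxn4, Tfap2a, Onecut2, Prox1 and Pax6. Onecut1 or Tfap2c joined them in some fits. In wild type Foxn4 was kept in each, and Prox1 was lost without Kir2.1 P4 replicate 1 or 3. In Kir2.1 Foxn4, Prox1 and Pax6 were kept, and Tfap2a and Onecut2 were lost in the cases given above. Over all genes 798 were called for age in wild type, against 2058 without the filter, 1580 with DESeq2, 113 on the groups compared alone, 163 to 1339 with 1 library left out and 1845 without both libraries nearest to the other age. The DESeq2 test called 33 genes at P4 and 3 at P8, and the unfiltered fit 339, 447 and 136 (the difference between ages). With 1 library left out 0 to 6 genes were called at P4, 0 to 219 at P8, 2133 to 4417 for age averaged and 1764 to 3676 in Kir2.1. The cause was not tested.

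Directions of some log2 values turned under some settings. For Kir2.1 against wild type at P4, Ptf1a was 0.13 with voom, Foxn4 -0.49 and Prox1 0.31 without both libraries, and Tfap2b 0.00 with no filter. Tfap2a there was 0.00 with DESeq2 size factors, the DESeq2 test or a mean of at least 1 CPM, 0.01 with voom and 0.04 with the replicate block. At P8 Onecut1 was -0.01 with voom. With 1 library left out the P4 ranges were -0.97 to 1.43 for Ptf1a, -0.49 to 1.45 for Foxn4, -0.10 to 0.09 for Tfap2a, -0.17 to 0.20 for Tfap2b, -0.23 to 0.04 for Tfap2c, -0.28 to 0.08 for Onecut2 and -1.16 to 0.32 for Prox1. At P8 they were -0.11 to 0.40 for Onecut1 and -0.16 to 0.02 for Onecut2. For age they were -0.30 to 0.13 for Tfap2b averaged, -0.18 to 0.66 for Tfap2b in wild type and -0.68 to 0.77 for Lhx1 in Kir2.1.

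Wild-type P4 has 2 libraries, so leaving out 1 assumes that the other varies like the rest. One count was worth 0.0801 to 0.107 CPM, which limits Ptf1a at P8 and Lhx1 in its lowest libraries.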
